A study of Mus musculus with 12 samples.

Results

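The transcript of p53 and those of 9 genes it is known to activate were followed in sorted mouse liver cells at stages of the conversion of hepatocytes toward bile duct cells. The 10 genes (Trp53, Mdm2, Bax, Bbc3, Eda2r, Ccng1, Phlda3, Sesn2, Trp53inp1 and Zmat3) were taken by gene symbol from a table of 53599 genes. All 10 were present, and all 10 were among the 16210 genes kept by the filter on low counts. The mice were labelled WT, had been given AAV8-TBG-Cre, in which the hepatocyte-restricted TBG promoter of the viral vector drives Cre to mark hepatocytes and their descendants, and were fed 0.1% DDC (3,5-diethoxycarbonyl-1,4-dihydrocollidine, a compound that injures bile ducts) for 8 weeks. Cells positive for EGFP were sorted as Cd24- Epcam- (early), Cd24+ Epcam- (intermediate) or Cd24+ Epcam+ (full), and EGFP- Epcam+ cells are the biliary epithelial cells (BEC). BEC do not carry the mark of hepatocyte descent. BEC against full therefore compares separate cell populations and is not a step of the conversion. Each of the 4 groups had 3 libraries, and all 12 came from animals that had received both the virus and the DDC diet, so every comparison is between cells of injured livers. The labels do not state the age of the mice, whether animals were pooled, or what a replicate number marks. P-values therefore measure the spread between these libraries, which may be technical.

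p53 is a transcription factor that accumulates after DNA damage and other stresses and switches on genes of growth arrest, cell death, metabolism and DNA repair. Its amount is set largely by the stability of the protein, which the ubiquitin ligase Mdm2, itself a p53 target, marks for destruction. Transcript counts do not report that step. Many p53 targets also answer to other factors. In the liver, p53 is known for restraining the growth of injured hepatocytes.

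p53 binds a pair of copies of a short sequence, each matching the p53 consensus decamer. The windows around the start sites of the 10 genes were searched for single copies, which are shown here because the genes were chosen as targets of this factor. RefSeq promoters on GRCm38.p6, running from 250 bases before to 50 bases after the start site, were found for 8 of the 10 genes, in 10 windows. The 8 are all but Trp53inp1 and Zmat3. A match was present in 4 windows, of 4 different genes, and in 8.36% of 32851 promoters of the same length in that table. The consensus reads the same on both strands. Each line gives 30 bases in the direction of the gene, 5′ to 3′, with the match in capitals:
Trp53: acccacggaaGGACTTGCCCttacttgtta
Mdm2: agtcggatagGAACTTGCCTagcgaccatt
Bax: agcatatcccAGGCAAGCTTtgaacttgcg
Ccng1: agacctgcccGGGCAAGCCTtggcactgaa
The first base of the match lay at position -75 from the start site in Trp53 (chr11:69580274-69580303, plus strand), -186 in Mdm2 (chr10:117710925-117710954, minus strand), -201 in Bax (chr7:45467080-45467109, minus strand) and -185 in Ccng1 (chr11:40755452-40755481, minus strand). No window of these genes held 2 matches separated by 0 to 13 bases, an arrangement found in 0.0731% of all promoters. The search covered these windows only. The windows with a match belong to genes that rose between early and intermediate (Trp53 and Ccng1) and to genes not called there (Mdm2 and Bax).

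Libraries held between 15112893 and 19731887 counts. The scale differed between groups: the share of counts taken by the top 50 genes was 33.5% ± 2.39 in early against 15.6% ± 0.938 in BEC (SD, n = 3 each). Levels are therefore given as CPM, counts brought to a common library total with TMM factors, which correct for such unequal composition. Mitochondrial genes took 7.63% ± 3.31 of the counts in early (11.4% in replicate 2) and 2.33% ± 0.141 in full. Of 13 genes of cell dissociation stress, 3 were called higher and 0 lower in intermediate than in early, beside 28.7% and 25.7% of all genes tested. None was called in full against intermediate or BEC against full, where 40.7% and 21.3% of all genes were. In full against early 6 were higher and 2 lower (39.1% and 32.1% of all genes), and in BEC against early 6 and 3 (40.0% and 33.0% of all genes). The part of these shifts in the results was not tested. The summed level of 18 hepatocyte markers ran from 137565 to 139079 CPM in early, 26531 to 32150 in intermediate, 5788 to 7493 in full and 2829 to 3623 in BEC. That of 15 biliary markers was 1053 to 2049 CPM in early, 10182 to 13055 in intermediate, 13701 to 16863 in full and 16843 to 20288 in BEC. Most of each biliary sum was Spp1, with 10978 to 22379 counts in early and 237437 to 300621 in BEC. The list also holds Epcam and Cd24a, which served for sorting. Of 11 stellate cell and fibroblast markers, 10 passed the filter, and 1 was called higher and 8 lower in full than in early, beside 39.1% and 32.1% of all genes. The 1 was Rgs5, at 33.4 to 49.3 CPM in early and 2941 to 3394 in full, while the other 10 summed to 113 to 329.9 CPM in early, 65.6 to 193 in intermediate, 49.3 to 85.6 in full and 64.6 to 109.5 in BEC. Of 10 macrophage markers, Csf1r ran from 3.80 to 4.11 CPM in early to 119 to 133 in BEC, and the other 9 summed to between 5.00 and 37.9 CPM over the 12 libraries, with the highest value in BEC. None of 7 neutrophil or 8 T and NK cell markers passed the filter, and 5 of 6 B cell markers together stayed at or under 1.28 CPM, with Igkc at 15.5 to 45.1 CPM in BEC. The sum of 9 endothelial markers was 17.1 to 33.2 CPM in early and 6.63 to 7.99 in full. Of the 8 tested, 0 were called higher and 4 lower in full than in early, beside the same 39.1% and 32.1% of all genes. The sum of 6 erythroid markers was 18.7 to 33.2 CPM in early and at most 3.17 in the other groups. The part of other cells in the results was not tested. In bulk libraries, more cells with a transcript and more transcript per cell cannot be told apart.

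Trp53 transcripts were 1.93-fold more abundant in intermediate than in early cells and were not called in full against intermediate or BEC against full. Of the 9 targets, 6 rose at the same step (Eda2r, Phlda3, Trp53inp1, Zmat3, Sesn2 and Ccng1), and Mdm2, Bax and Bbc3 were not called. Altogether 7 of the 10 genes were called higher in intermediate and 0 lower, where 28.7% of all genes tested were called higher and 25.7% lower, 54.4% in all (edgeR's quasi-likelihood test, Benjamini-Hochberg adjusted p under 0.05 over 16210 genes). The median log2 fold change of the 10 genes was 0.83, against 0.06 for all genes tested. The 3 intermediate libraries lay above the 3 early ones for the same 7 genes, as they did for 31.1% of all genes. No member was called between full and intermediate, and only Eda2r between BEC and full. With the replicate number as a block, Phlda3 and Trp53inp1 were called in the former and Trp53inp1 also in the latter. That fit called 45% and 25.3% of all genes there.

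**Figure D1:**
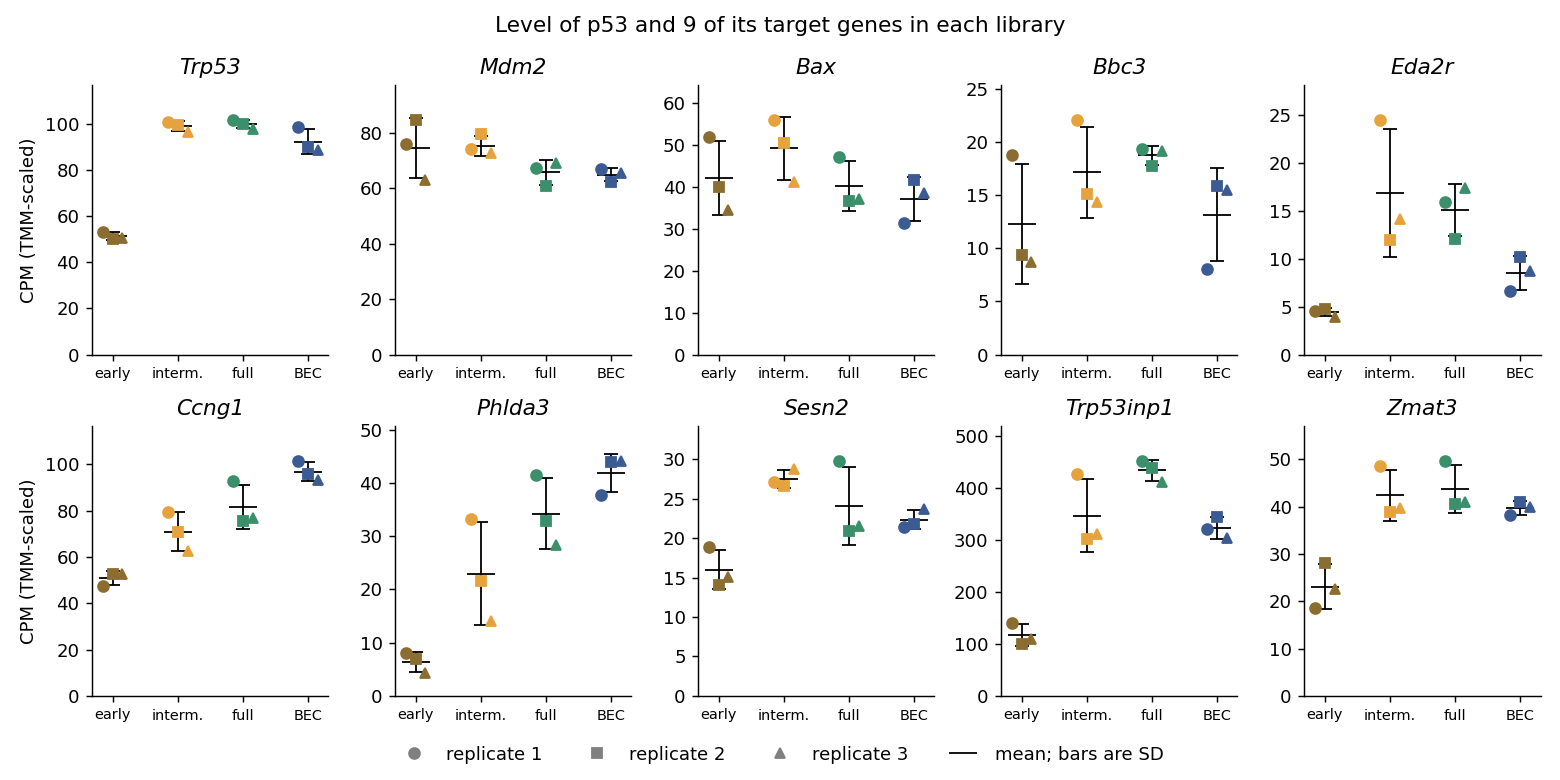
CPM of each gene (y axis, TMM-scaled, starting at 0) in the 12 libraries by group (x axis). Points are libraries, with shapes for replicate numbers 1 to 3, horizontal marks are means and bars SD (n = 3). Trp53 sits between 50.1 and 53.3 CPM in early and between 88.7 and 101.6 in all other libraries, while Mdm2 overlaps between early and every other group.

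Trp53 encodes p53 itself. Its level was 53.3, 50.1 and 50.4 CPM in the early libraries, 100.9, 99.6 and 96.5 in intermediate, 101.6, 100.1 and 97.9 in full and 98.5, 89.8 and 88.7 in BEC (replicates 1 to 3). All 9 other libraries lay above all 3 early ones, and the intermediate, full and BEC libraries overlapped. Intermediate exceeded early by a log2 fold change of 0.95 (SE 0.07, edgeR adjusted p 1.85e-07). Neither full against intermediate (0.01, SE 0.07, edgeR adjusted p 0.910) nor BEC against full (-0.11, SE 0.07, edgeR adjusted p 0.339) was called. In order of mean level the groups were early (51.2 ± 1.77 CPM), BEC (92.3 ± 5.40), intermediate (99.0 ± 2.26) and full (99.9 ± 1.84, SD, n = 3 each), and BEC was called higher than early (0.85, SE 0.07, edgeR adjusted p 1.64e-07). BEC and intermediate, neighbours in this order, overlapped and were not tested against each other. Of the 16209 other genes kept by the filter, the 3 whose log2 CPM pattern over the 12 libraries lay nearest to that of Trp53, by root mean square difference after centring each gene on its own mean, were Alcam (0.0723), Khdrbs1 (0.0811) and Zfp266 (0.0918). Among the targets Zmat3 was nearest (0.175, rank 226 of 16209) and Phlda3 farthest (0.783, rank 9552).

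Mdm2 encodes the ubiquitin ligase that marks p53 for destruction. Its level was 75.9, 84.7 and 63.0 CPM in early, 74.1, 79.6 and 72.8 in intermediate, 67.5, 60.7 and 69.3 in full and 67.0, 62.4 and 65.6 in BEC. The early libraries, from 63.0 to 84.7 CPM, overlapped every other group. Intermediate against early gave a log2 fold change of 0.02 (SE 0.10, edgeR adjusted p 0.896). Full and BEC against early gave -0.18 (SE 0.10, edgeR adjusted p 0.138) and -0.20 (SE 0.10, edgeR adjusted p 0.102). The 2 last comparisons were called lower when early replicate 3 was left out (-0.29 and -0.30, edgeR adjusted p 0.0167 and 0.0115). The 3 libraries of full lay below the 3 of intermediate, without a call (-0.20, SE 0.10, edgeR adjusted p 0.146). Mdm2 was the single member with such an order there, which 4378 of the 16210 genes showed.

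Of the 3 death genes among the targets, Eda2r was called at the first step and Bax and Bbc3 in none of the 5 comparisons. Bax, which encodes a protein that perforates the outer mitochondrial membrane, had 51.8, 40.1 and 34.4 CPM in early, 55.9, 50.5 and 41.1 in intermediate, 47.1, 36.7 and 37.0 in full and 31.3, 41.5 and 38.6 in BEC. The 4 groups overlapped and no comparison was called (log2 fold change 0.22, SE 0.17, edgeR adjusted p 0.285 for intermediate against early). Bax shares 192 exonic bases with the gene model Gm45808 on the same strand in GENCODE M21, so reads there may have been counted for neither or either gene.

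Bbc3, which encodes the BH3-only protein PUMA, had 18.8, 9.36 and 8.73 CPM in early, 22.0, 15.1 and 14.3 in intermediate, 19.3, 17.7 and 19.1 in full and 8.08, 15.8 and 15.5 in BEC. Single libraries stood apart in early (replicate 1, high) and in BEC (replicate 1, low). No comparison was called (0.47, SE 0.30, edgeR adjusted p 0.205 for intermediate against early, and 0.60, SE 0.30, edgeR adjusted p 0.0850 for full against early). Without early replicate 1, Bbc3 was called higher in intermediate (0.92, edgeR adjusted p 0.0138) and in full (1.05, edgeR adjusted p 0.00416). All 3 BEC libraries were below all 3 full libraries, without a call (-0.51, SE 0.29, edgeR adjusted p 0.266).

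Eda2r, a receptor of the TNF receptor family that binds ectodysplasin A2, had the largest fitted rise of the 10 genes at the first step. It had 4.50, 4.81 and 3.96 CPM in early, 24.5, 11.9 and 14.2 in intermediate, 15.9, 12.1 and 17.4 in full and 6.64, 10.1 and 8.72 in BEC. Both converting groups lay above BEC, and BEC above early, with no overlap. The log2 fold change was 1.93 for intermediate against early (SE 0.27, edgeR adjusted p 4.55e-05), -0.15 for full against intermediate (SE 0.24, edgeR adjusted p 0.653) and -0.83 for BEC against full (SE 0.25, edgeR adjusted p 0.0278). The lower level in BEC than in full was the single call among the 10 genes in that comparison. There 10.6% of all genes were called lower and 10.7% higher, 21.3% in all. The call of Eda2r was lost when full replicate 1, full replicate 3, BEC replicate 1 or BEC replicate 3 was left out (edgeR adjusted p from 0.0664 to 0.113).

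The other 5 targets (Phlda3, Trp53inp1, Ccng1, Sesn2 and Zmat3) were each called higher at the first step, where 28.7% of all genes were. Phlda3, an inhibitor of the kinase AKT, had 7.98, 6.90 and 4.28 CPM in early, 33.3, 21.6 and 14.0 in intermediate, 41.5, 32.9 and 28.4 in full and 37.7, 43.9 and 44.1 in BEC. Early libraries were the lowest, and intermediate libraries differed from each other more than those of full or BEC did. The log2 fold change was 1.84 for intermediate against early (SE 0.29, edgeR adjusted p 0.000121), 0.58 for full against intermediate (SE 0.26, edgeR adjusted p 0.0895) and 0.29 for BEC against full (SE 0.25, edgeR adjusted p 0.505). With the replicate number as a block, the second step was called (0.61, edgeR adjusted p 0.0202), as it was without intermediate replicate 1 (0.94, edgeR adjusted p 0.00580). BEC exceeded early 6.56-fold (2.71, SE 0.29, edgeR adjusted p 1.40e-06).

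Trp53inp1, a stress protein that cooperates with p53 and takes part in autophagy, had 141, 99.8 and 109.9 CPM in early, 428, 301 and 312 in intermediate, 451, 439.5 and 411 in full and 322, 345 and 303 in BEC. Early lay below all other groups, and the full libraries lay above those of BEC. It rose by a log2 fold change of 1.57 at the first step (SE 0.15, edgeR adjusted p 1.16e-06). Full against intermediate gave 0.32 (SE 0.15, edgeR adjusted p 0.0949) and BEC against full -0.42 (SE 0.15, edgeR adjusted p 0.0544). With the replicate block both of these were called (0.34, edgeR adjusted p 0.0238, and -0.42, edgeR adjusted p 0.0118). Leaving out intermediate replicate 1 gave calls at both as well (0.50, edgeR adjusted p 0.0107, and -0.42, edgeR adjusted p 0.0214). The lower level in BEC than in full was also called when early replicate 1 or 2 was left out (edgeR adjusted p 0.0246 and 0.0454), and by DESeq2 (-0.41, adjusted p 0.0409).

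Ccng1, which encodes cyclin G1, shared with Phlda3 the order of its group means, from early as the lowest through intermediate and full to BEC. It had 47.3, 52.5 and 52.7 CPM in early, 79.3, 70.6 and 62.6 in intermediate, 92.7, 75.5 and 76.8 in full and 101.2, 95.6 and 93.3 in BEC. Early lay below intermediate and BEC above full, while intermediate and full overlapped. The first step was called (log2 fold change 0.48, SE 0.11, edgeR adjusted p 0.00183). Neither full against intermediate (0.21, SE 0.10, edgeR adjusted p 0.139) nor BEC against full (0.24, SE 0.10, edgeR adjusted p 0.127) was called. The last was called without full replicate 1 (0.35, edgeR adjusted p 0.0410). BEC exceeded early by 0.93 (SE 0.11, edgeR adjusted p 2.81e-06).

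Sesn2, a leucine sensor that restrains the growth kinase complex mTORC1, had 18.9, 14.1 and 15.1 CPM in early, 27.1, 26.7 and 28.8 in intermediate, 29.8, 20.9 and 21.6 in full and 21.5, 21.8 and 23.7 in BEC. Early was below all other groups, and full replicate 1 was above the rest of its group. The first step was called (log2 fold change 0.78, SE 0.15, edgeR adjusted p 0.000565). Full against intermediate (-0.19, SE 0.14, edgeR adjusted p 0.307) and BEC against full (-0.11, SE 0.14, edgeR adjusted p 0.682) were not. Without full replicate 1, full was called lower than intermediate (-0.37, edgeR adjusted p 0.0404).

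Zmat3, a zinc finger protein that binds RNA, had 18.6, 28.2 and 22.6 CPM in early, 48.7, 39.0 and 39.8 in intermediate, 49.6, 40.6 and 41.0 in full and 38.2, 41.0 and 39.9 in BEC. All early libraries were below all others, which overlapped. The log2 fold change was 0.88 for intermediate against early (SE 0.15, edgeR adjusted p 0.000166). It was 0.04 for full against intermediate (SE 0.14, edgeR adjusted p 0.835) and -0.14 for BEC against full (SE 0.14, edgeR adjusted p 0.573).

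**Figure D2:**
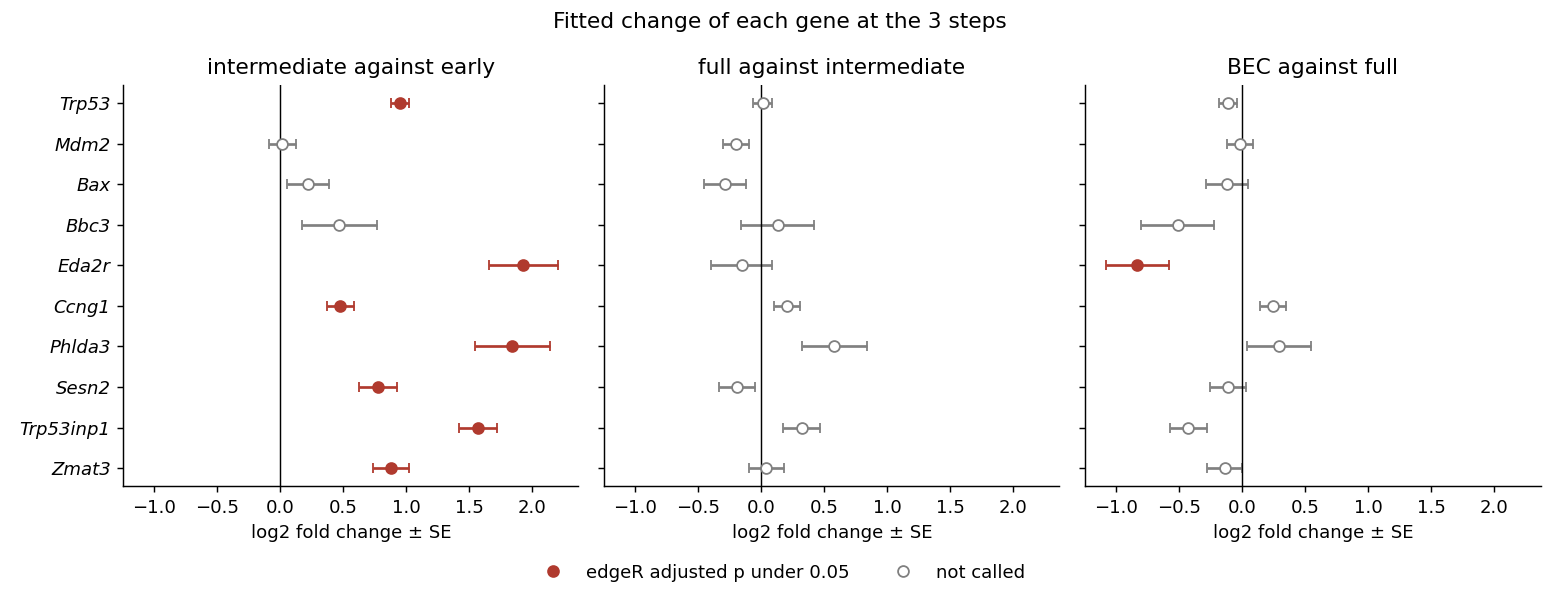
Fitted log2 fold change (x axis, bars are SE of the fit to 12 libraries) of each gene (y axis) at the first and second step and in BEC against full, with filled red points for an edgeR adjusted p under 0.05. At the first step 7 genes lie to the right of 0 by between 0.48 and 1.93, at the second none is called, and in BEC against full only Eda2r is (-0.83).

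Across the second step, 0 of the 10 genes were called, where 20.8% of all genes were called higher and 19.8% lower, 40.7% in all. At an unadjusted p under 0.05 there were 2 (Phlda3 and Trp53inp1), DESeq2 called 0, and the replicate block called these same 2, beside 7300 of the 16210 genes. Between BEC and full, 3 genes had an unadjusted p under 0.05 (Eda2r, Trp53inp1 and Ccng1), and DESeq2 and the replicate block each called 2, beside 3825 and 4096 of all genes. The BEC libraries lay below those of full for Bbc3, Eda2r and Trp53inp1 and above them for Ccng1, orders that 19.0% and 20.6% of all genes showed. Full against early called the 7 genes of the first step higher, where 39.1% of all genes were called higher and 32.1% lower (71.2% in all), with a median log2 fold change of 0.80 over the 10 genes against 0.14 over all. BEC against early called the same 7, where 40.0% were called higher and 33.0% lower (73.0% in all), with a median of 0.82 against 0.14. In both, the libraries did not overlap for these 7 genes, as for 41.0% and 41.2% of all genes in the same direction. The comparisons with early share its 3 libraries. Over all 4 groups, 7 of the 10 genes differed (edgeR's F test), as did 75.6% of all genes. The 3 not called were again Mdm2, Bax and Bbc3 (edgeR adjusted p 0.132, 0.175 and 0.200).

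These directions are relative to the TMM scale. With total counts only, the median over all genes moved from 0.06 to 0.72 between intermediate and early, 85.6% of the calls there were higher (52.8% with TMM), and 59.4% of all genes and 10 of the 10 members were called higher, Mdm2 at 0.69 and Bax at 0.89. On that scale the 10 genes were also called higher in full and in BEC than in early, as were 66.4% and 65.8% of all genes. The median over all genes was 1.004 and 1.003, above Mdm2 (0.69 and 0.67) and Bax (0.80 and 0.69), and 81.8% and 80.2% of all calls were higher against 54.9% and 54.8% with TMM. Between full and intermediate, total counts gave 4 genes called higher (Trp53, Ccng1, Phlda3 and Trp53inp1), beside 32.3% of all genes, with 72.5% of all calls higher against 51.2% and a median over all genes of 0.21. The 7 genes called higher with TMM in intermediate, full and BEC against early were called higher under all 7 other settings (DESeq2, 2 other scalings, 2 other filters, the replicate block and only the 6 libraries compared), and in all 12 fits that each left out 1 library.

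The balance between each target and Trp53 within a library does not depend on the scale. The log2 ratio of Mdm2 counts to Trp53 counts was 0.51, 0.76 and 0.32 in the early libraries, and between -0.72 and -0.32 in the other 9. The mean ratio fell by 0.92 from early to intermediate on the log2 scale and by a further 0.21 to full, and lay 1.04 lower in BEC than in early, without overlap in any of these comparisons. The ratio of Bax to Trp53 was also lower in intermediate than in early, by 0.72 (-1.02 ± 0.19 against -0.30 ± 0.26), and that of Ccng1 by 0.48 (-0.49 ± 0.14 against -0.01 ± 0.14, SD, n = 3 each). In BEC the ratio of Ccng1 was 0.07 ± 0.03 and overlapped early, while those of Mdm2 and Bax remained below it. Trp53inp1 and Eda2r gained on Trp53 at the first step, by 0.61 and 0.91. In BEC the ratio of Trp53inp1 lay 0.63 above early, while that of Eda2r (-3.46 ± 0.39) overlapped early (-3.54 ± 0.15). Phlda3 gained 1.49 from early to full and lay 1.91 higher in BEC than in early. The ratio of Sesn2 lay 0.36 lower in BEC than in early, without overlap, and overlapped in the other comparisons. Zmat3 kept pace, with differences between groups of at most 0.06 in size and overlap in all 5 comparisons. Each comparison without overlap gave p = 0.1 in a 2-sided exact permutation test, which cannot go lower with 3 libraries a side, and 0.225 after Benjamini-Hochberg adjustment over 45 comparisons, so none could pass 0.05.

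**Figure D3:**
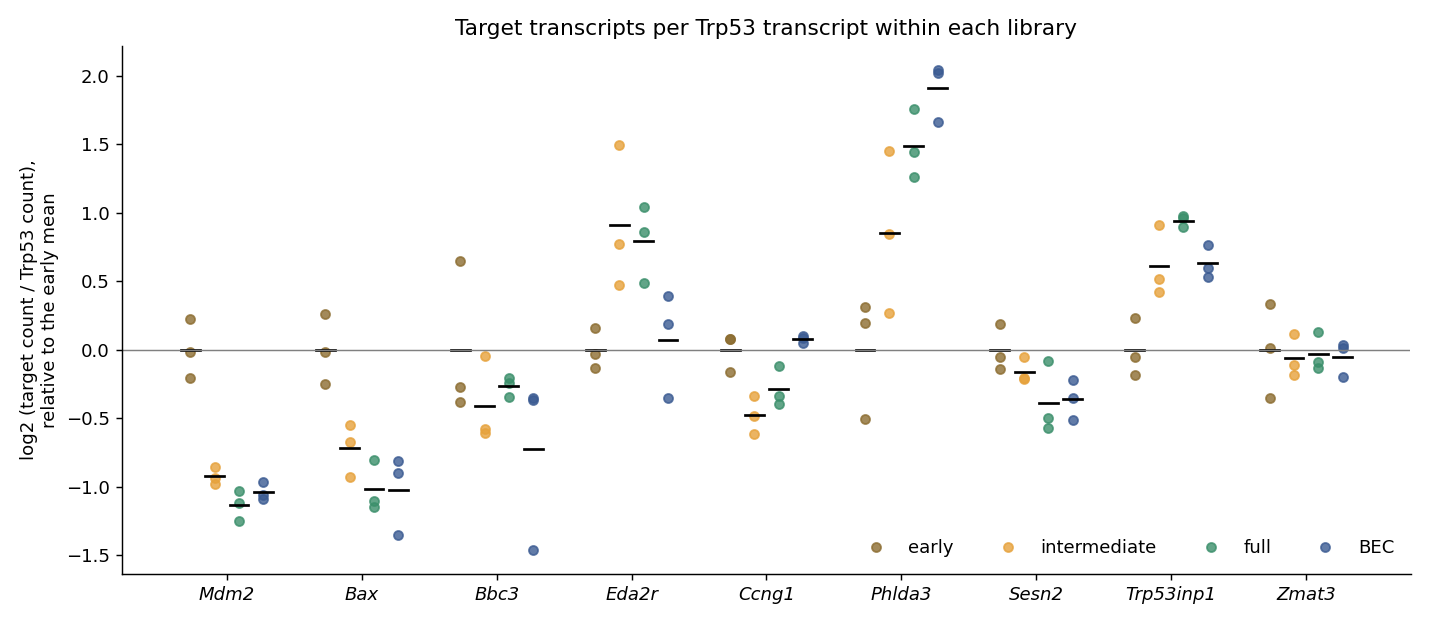
Log2 ratio of each target's count to the Trp53 count in the same library (y axis), set to 0 at the early mean, for the 9 targets (x axis). Points are libraries, coloured by group, and bars are means (n = 3). Mdm2 and Bax fall below 0 in intermediate, full and BEC, Phlda3, Eda2r and Trp53inp1 have higher means in intermediate and full than in early, and Zmat3 remains around 0.

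Levels of different genes were compared per kilobase of exon, from the merged exons of GENCODE M21. In early the highest were Bax (26.7 ± 5.66 CPM per kilobase) and Trp53inp1 (18.1 ± 3.33), followed by Mdm2 (14.7 ± 2.15), Ccng1 (14.5 ± 0.867) and Trp53 (12.7 ± 0.438, SD, n = 3 each), and the lowest was Eda2r (0.751 ± 0.0733). In full, Trp53inp1 led (67.0 ± 3.20 CPM per kilobase), and Bax (25.5 ± 3.78), Trp53 (24.7 ± 0.456), Ccng1 (23.2 ± 2.73) and Phlda3 (22.0 ± 4.27) lay within their spread of each other. Phlda3 had been among the lower genes in early (4.10 ± 1.22 CPM per kilobase).

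Replicates of a group differed together for many targets. In intermediate, replicate 1 was the highest of its group for 7 of the 9 targets and the lowest for 0, where it was the highest for 38.2% of all genes tested. In full it was also the highest for 7 of 9, where 39.5% of all genes were highest there, and in early for 5 of 9, against 38.7%, while it was the lowest there for 2 (Ccng1 and Zmat3). In BEC, replicate 1 was instead the lowest for 6 of 9 (Bax, Bbc3, Eda2r, Phlda3, Sesn2 and Zmat3), against 43.3% of all genes. Other libraries also stood out: full replicate 2 was the lowest for 7 of 9, against 32.7% of all genes, and BEC replicate 2 the highest for 5 of 9, against 25.6%. Early replicate 3 and intermediate replicate 3 were each the lowest for 5 of 9, against 27% and 33.3%. The median deviation of the 9 targets from their group mean was 0.25, 0.20, 0.19 and -0.06 in log2 CPM for replicate 1 of early, intermediate, full and BEC, where that of all genes was between -0.01 and 0.01. Trp53 deviated by at most 0.0954 in these 4 libraries. With the 4 libraries numbered 1 left out together, the 3 comparisons with early called 8 of the 10 genes higher, the 7 above and Bbc3, where the same fit called 27.5%, 38.3% and 39.4% of all genes higher in intermediate, full and BEC. The same fit called 4 genes between full and intermediate (Bbc3, Phlda3 and Trp53inp1 higher, Sesn2 lower) and 3 between BEC and full, where it called 7159 and 3565 of the 16210 genes. This fit rests on 2 libraries a group.

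**Figure D4:**
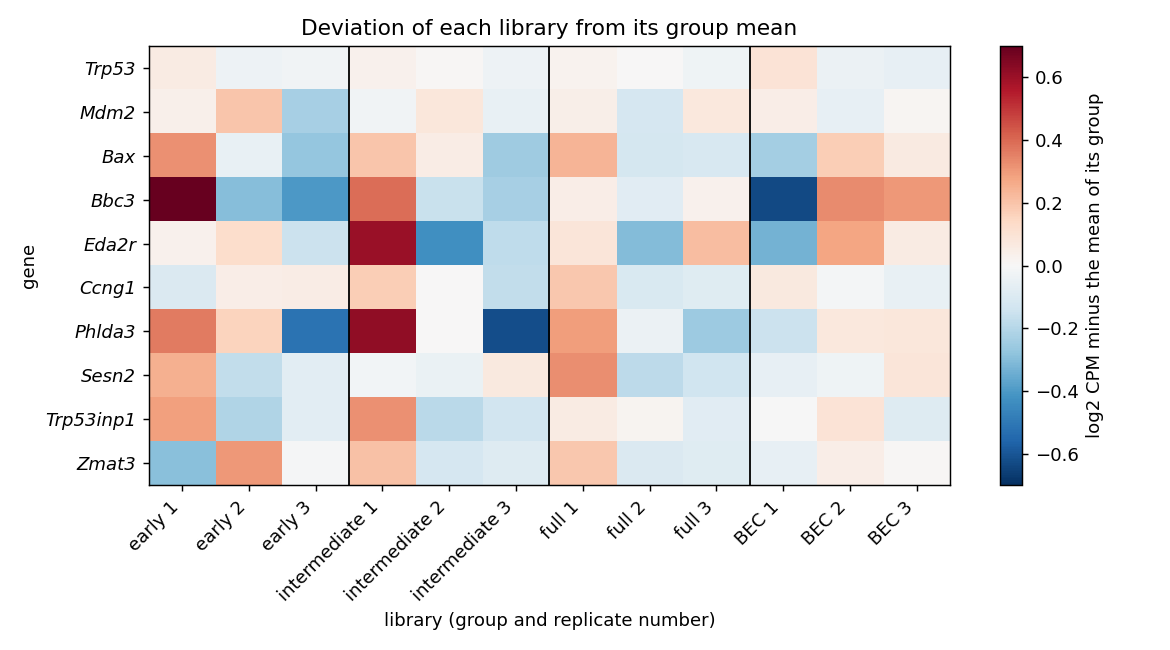
Log2 CPM of each gene (rows) in each library (columns, by group and replicate number) minus the mean of its group, with red above and blue below. Replicate 1 is mostly red in early, intermediate and full and mostly pale or blue in BEC, where Bbc3 has its lowest value, and the row of Trp53 is pale throughout.

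Another 60 genes of the p53 network were followed for context, 20 regulators and 40 further targets, of which 18 and 38 passed the filter. At the first step 8 regulators were called higher and 1 lower, with a median log2 fold change of 0.19, and 15 targets were called higher and 12 lower, with a median of -0.12, beside 28.7% of all genes higher and 25.7% lower. At the second step the counts were 7 and 0 for regulators and 10 and 12 for targets (20.8% and 19.8% of all genes), and between BEC and full 2 and 1 for regulators and 5 and 4 for targets (10.7% and 10.6% of all genes). With total counts only, the network as a whole had 37 genes called higher and 6 lower at the first step, against 23 and 13. With the replicate block, 19 network genes differed between BEC and full, against 12 without it, while calls over all genes went from 3445 to 4096.

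Among regulators, Mdm4, the partner of Mdm2 that blocks p53 activity, rose at the first step, with 97.2 ± 4.70 CPM in early and 145 ± 2.95 in intermediate (SD, n = 3, log2 fold change 0.57, SE 0.08, edgeR adjusted p 3.14e-05). Full against intermediate and BEC against full were not called for it. Trp53bp1, a protein of DNA break repair that binds p53, rose at the first step from 22.5 ± 2.73 to 64.3 ± 6.39 CPM (1.51, SE 0.12, edgeR adjusted p 1.78e-07) and at the second to 103 ± 10.5 CPM (0.68, SE 0.11, edgeR adjusted p 0.000277). Cdkn2a, whose Arf product inhibits Mdm2 and whose other product is a cell cycle inhibitor, had 0 counts in all early and intermediate libraries, between 15 and 38 counts in full and between 130 and 205 in BEC. BEC (8.04 ± 1.60 CPM) was at least 29.5-fold higher than early, taking 3 counts per library as the floor, and exceeded full by a log2 fold change of 2.83 (SE 0.36, edgeR adjusted p 0.000387). The counts do not separate the 2 products. Of the relatives of p53, Trp63 had 0 counts in all 12 libraries and Trp73 at most 8.

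Cdkn1a, the cell cycle inhibitor p21 and the best known p53 target, was highest in intermediate. Its level was 39.4, 62.5 and 19.7 CPM in early, 92.8, 104.8 and 70.1 in intermediate, 70.8, 56.8 and 63.7 in full and 30.3, 41.0 and 34.3 in BEC. Intermediate lay above early (log2 fold change 1.14, SE 0.29, edgeR adjusted p 0.00440), with BEC below full (-0.86, SE 0.29, edgeR adjusted p 0.0482), while full against intermediate was not called (-0.48, SE 0.28, edgeR adjusted p 0.193). BEC and early overlapped (-0.20, SE 0.29, edgeR adjusted p 0.556). Of 16 cell cycle genes, 12 were called lower in intermediate than in early and 16 higher in full than in intermediate, beside 25.7% and 20.8% of all genes. The part of these cell cycle genes in the values of Cdkn1a was not tested.

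The further targets that moved most went in both directions. Gls2, the liver-type glutaminase, fell from 387 ± 63.7 CPM in early to 49.5 ± 10.6 in intermediate and 8.66 ± 2.34 in full (log2 fold changes of -2.97 and -2.52 at the 2 steps, edgeR adjusted p 4.86e-07 and 6.62e-06). Pank1, an enzyme of coenzyme A synthesis, and Dcxr, a sugar reductase, fell at the first step (-1.99 and -1.98), and the kinase gene Plk3 and the metal reductase gene Steap3 fell most after Gls2 at the second (-2.42 and -1.71). In the opposite direction, Pmaip1, the BH3-only protein NOXA, rose at both steps, with 1.02 ± 0.689 CPM in early, 8.20 ± 1.06 in intermediate and 22.0 ± 2.41 in full (2.96 and 1.43 at the 2 steps, edgeR adjusted p 6.67e-06 and 0.000340). Cpt1c, a relative of the fatty acid carrier enzymes, rose from 0.611 ± 0.115 to 7.66 ± 1.17 and 17.9 ± 0.636 CPM (SD, n = 3). Trp53i11 had 0, 14 and 0 counts in early, 155, 85 and 28 in intermediate and 734 to 1046 in full. Sfn, the cell cycle inhibitor 14-3-3 sigma, and the adenylate kinase gene Ak1 rose at the second step (2.37 and 2.25). Between BEC and full, Sfn (1.47) and Ddit4, an inhibitor of mTORC1 (1.26), were higher in BEC after Cdkn2a, and Steap3 (-2.15), Cdkn1a and the death receptor gene Fas (-0.63) were lower. Against early, Trp53i11, Cpt1c and Pmaip1 rose most in full, by log2 fold changes of 6.63, 4.86 and 4.38 (that of Trp53i11 rests on 14 early counts in 1 library), and Gls2, Plk3 and Pank1 fell most (-5.48, -4.06 and -2.99). In BEC against early, Trp53i11 and Cpt1c had the largest positive values of the genes other than Cdkn2a (7.08 and 4.81). Cdkn2a is not placed in this order because it had 0 counts in early. The largest negative values were those of Gls2, Steap3 and Plk3 (-6.18, -4.73 and -4.40).

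**Figure D5:**
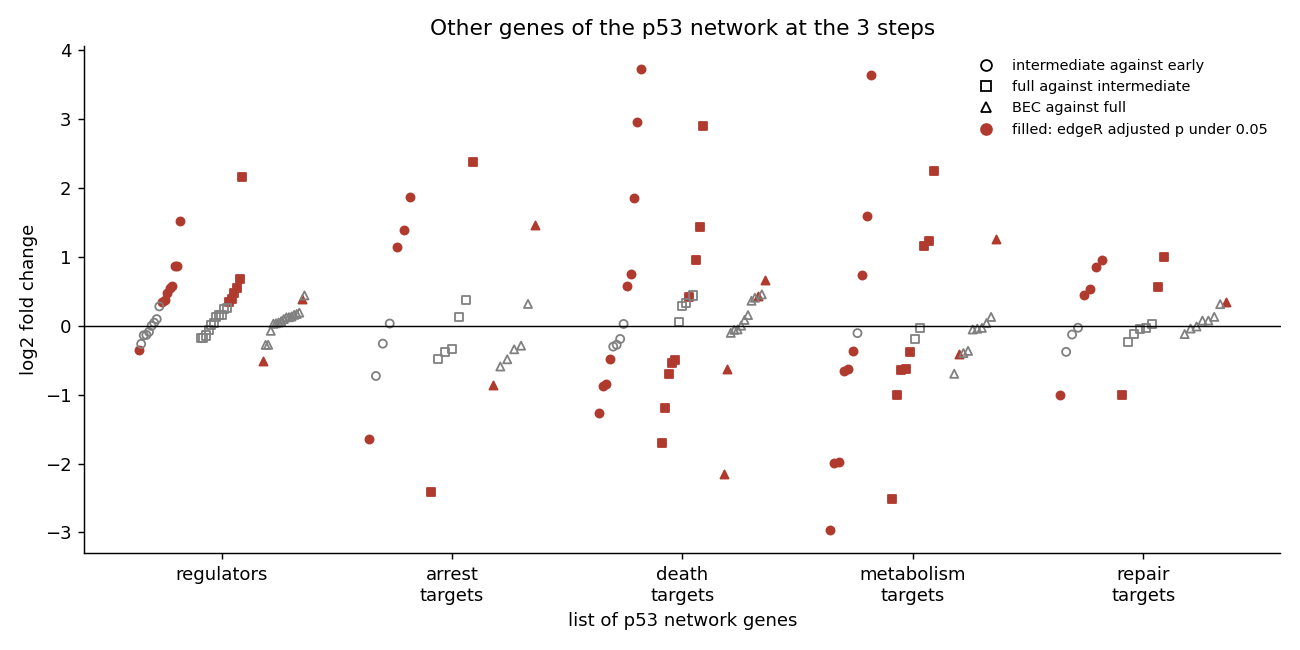
Log2 fold change (y axis) of the tested regulators and further targets, by list (x axis) and comparison (marker shape), with filled red markers for an edgeR adjusted p under 0.05 and open grey markers for the rest. Cdkn2a is not drawn because it had 0 counts in 6 libraries. Called genes of the 4 target lists lie on both sides of 0 at the first step (15 higher and 12 lower), while 8 called regulators lie above 0 and 1 below.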

How the data were processed

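Bulk RNA was sequenced from 12 libraries, 3 in each group. The authors deposited raw counts per gene symbol. The submitters' processing notes name STAR 2.7.10b, featureCounts 2.0.1, DESeq2 and the build GRCm39; the annotation, strandedness and treatment of reads matching several genes are not given in the sources used here. The authors also deposited a table of signal, the counts divided by 1 size factor per library, which was used only as a check. The count table had 0 rows without a name and 0 columns without a sample.

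Tests were run with edgeR 4.0.16 and DESeq2 1.42.0 under R 4.3.3. Figures and promoter searches were made in Python 3.11.15, with matplotlib 3.10.9 for drawing. Genes were kept by filterByExpr (16210), scaled by TMM factors and fitted in 1 quasi-likelihood model with a term per group. SE is the log2 fold change divided by the root of its F statistic. Log2 CPM used a prior count of 2. A floor of 3 counts, between 0.128 and 0.273 CPM, covers counting error only. The script was tested on simulated data. Replicates differed beyond counting error (chi-square per degree of freedom from 5.14 to 49.3).

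The 10 genes and all lists were chosen with earlier results of these data known. Further network genes were named by rule: Cdkn1a, Mdm4, Trp53bp1, Cdkn2a, Trp63 and Trp73, and for each comparison the 3 called genes with the largest change in each direction and at least 5 CPM in the higher group. Alternatives covered DESeq2, total counts, median-of-ratios factors, 2 filters, a replicate block, fits of 6 libraries and leaving out each library.

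Labels number the replicates 1 to 3 in each group. As a check of pairing, libraries with the same number were compared in how far each gene lay from its group mean. Pearson's r ran from 0.121 to 0.293 (intermediate and early), 0.137 to 0.322 (full and intermediate) and 0.170 to 0.257 (BEC and full). It was taken across genes, which are not independent replicates. For full and BEC against early it ran from 0.0960 to 0.209 and from 0.0442 to 0.145. All r were positive, so libraries with the same number deviated together in part. The main fit left the numbers out, so its SE and p-values ignore this pairing. The replicate block, which takes it in, changed calls of Phlda3 and Trp53inp1 as given above.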

Additional observations from a re-analysis of the deposited data

How the results depend on the processing

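The 7 genes called at the first step, and in full and BEC against early, kept their calls and directions in every alternative run, and 7 or 8 of the 10 were called in each fit that left out 1 library. The genes not called there were less firm. Without a filter on low counts, Bbc3 was called higher in intermediate (0.51, edgeR adjusted p 0.0444) and in full (0.65, edgeR adjusted p 0.00434) than in early. With total counts only, all 10 were called higher in the comparisons with early, beside 59.4% (intermediate), 66.4% (full) and 65.8% (BEC) of all genes. The counts in full against intermediate and BEC against full also changed with the setting. Between full and intermediate the number of members called was 0, but 4 with total counts only, 1 without a filter on low counts, 2 with the replicate block and 4 without the libraries numbered 1, a setting chosen after the data were seen; leaving out single libraries gave 0 to 2. Those 4 settings called 7211, 6331, 7300 and 7159 of all genes there. Between BEC and full it was 1, but 2 with DESeq2, with the replicate block and with only the 6 libraries compared, 3 without a filter and 3 without the libraries numbered 1, and 0 to 2 when single libraries were left out. In the order given, those 5 settings called 3825, 4096, 4064, 3611 and 3565 of all genes. The replicate block gave 19 network genes called between BEC and full, against 12, and 4096 of all genes, against 3445. It changed no other call among the members than those given for Phlda3 and Trp53inp1. The cause of these changes was not tested.

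Signs changed in results that the main fit did not call. With total counts only, the reversed values of Mdm2 and Bax in full and BEC against early were called (edgeR adjusted p from 2.06e-05 to 0.00176). Mdm2 in intermediate against early was -0.0351 with DESeq2 and -0.0355 with median-of-ratios factors. Total counts only reversed Mdm2 in full against intermediate (0.00295), full against early (0.69) and BEC against early (0.67), Bax in full against early (0.80) and BEC against early (0.69), and Eda2r (0.0443) and Sesn2 (0.00613) in full against intermediate; this setting moves the median of all genes. Without the libraries numbered 1, Bax was 0.12 in BEC against full and 0.11 in BEC against early, Eda2r 0.18 in full against intermediate and Sesn2 0.0999 in BEC against full. Leaving out 1 library gave ranges across 0 for full against intermediate in Trp53 (-0.0121 to 0.0266), Eda2r (-0.35 to 0.21) and Zmat3 (-0.0576 to 0.15), for BEC against full in Mdm2 (-0.0740 to 0.0197), Bax (-0.21 to 0.0115) and Sesn2 (-0.20 to 0.0722), for Mdm2 in intermediate against early (-0.0888 to 0.12), for Bax in full against early (-0.19 to 0.12) and for Bbc3 in BEC against early (-0.11 to 0.54).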
